A study of Mus musculus with 24 samples.

Results

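Transforming growth factor beta (TGF-beta) and the genes of the extracellular matrix associated with fibrosis were followed as a set of 10 genes in mouse calf muscle. The set was given by name: the 3 TGF-beta ligands Tgfb1, Tgfb2 and Tgfb3, the matricellular genes Ctgf (current symbol Ccn2), Postn, Tnc and Spp1, the matrix gene Fn1, the collagen crosslinker Lox, and the contractile gene Acta2. All 10 were found among the 54532 genes counted, and all 10 passed the filter on low counts in each sex. RNA of the left gastrocnemius muscle was sequenced from wild-type C57/BL6 mice in 24 libraries, 4 in each of 6 groups, all with a time label of 24 h. Controls of each sex were sedentary and received a pair of saline injections (pH 7.2 ± 0.1, 20 µl each, 5 days apart) into that muscle. Sedentary pain animals received acid in place of saline (pH 5.0 ± 0.1) in the same volume and spacing, with 6 min of electrically stimulated contraction immediately before the second injection. Active pain animals had running wheels for 8 weeks and then went through the same acid and contraction procedure.

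These groups have limits as models. Acid and contraction were always given together, so their effects cannot be told apart. No group ran without the pain procedure, so running was compared only within it, as active against sedentary pain. In whole muscle, a change in the number of cells of a type and a change in RNA per cell cannot be told apart either. Ages, and whether each library came from a single animal, are not given in the sources used here, and p-values therefore measure the spread between these libraries. Total counts ranged from 17612139 to 34039699 per library. Muscle fibre genes were abundant in every group, with Acta1 at a mean of 28599.3 to 37271.7 CPM (read counts scaled to a common library total), so the labelled tissue was there.

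TGF-beta ligands are secreted in a latent form bound to their own propeptide, which latent TGF-beta binding proteins and cell-surface anchors hold until integrins, proteases or thrombospondin release the active factor. The released ligand joins type II and type I receptors, which pass the signal to Smad2, Smad3 and Smad4, and the Smad complex binds DNA at short elements in target genes. In skeletal muscle, fibroblast-like fibro-adipogenic progenitors and infiltrating macrophages are known sources and targets of the ligands, and lasting signalling is known for matrix deposition after injury.

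The stretch before the transcription start is shown for 4 of the genes, because Tgfb1, Tnc and Spp1 rose in sedentary females while Tgfb2, a ligand of the same family, is the comparison gene that did not pass the test. Of the 10 genes, 6 had an entry in the RefSeq promoter table (GRCm38.p6). Each line gives the 250 bases that end at the base before the start, 5′ to 3′ on the gene's strand, and capitals mark the motif matches on either strand.
Tgfb1 (chr7:25686752-25687001, plus strand): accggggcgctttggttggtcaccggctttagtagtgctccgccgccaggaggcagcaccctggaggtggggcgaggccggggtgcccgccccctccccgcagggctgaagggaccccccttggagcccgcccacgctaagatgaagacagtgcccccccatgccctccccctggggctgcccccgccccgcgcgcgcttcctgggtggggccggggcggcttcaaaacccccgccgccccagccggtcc
Tgfb2 (chr1:186705990-186706239, minus strand): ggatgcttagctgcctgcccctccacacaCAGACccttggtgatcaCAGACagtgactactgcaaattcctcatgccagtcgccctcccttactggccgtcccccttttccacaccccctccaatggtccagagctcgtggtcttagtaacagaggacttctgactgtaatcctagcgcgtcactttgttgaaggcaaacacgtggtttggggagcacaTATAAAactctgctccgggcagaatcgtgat
Tnc (chr4:64047016-64047265, minus strand): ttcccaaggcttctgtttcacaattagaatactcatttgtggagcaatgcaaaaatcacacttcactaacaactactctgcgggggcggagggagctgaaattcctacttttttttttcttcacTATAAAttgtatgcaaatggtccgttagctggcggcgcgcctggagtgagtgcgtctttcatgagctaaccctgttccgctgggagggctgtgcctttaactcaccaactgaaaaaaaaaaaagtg
Spp1 (chr5:104434861-104435110, plus strand): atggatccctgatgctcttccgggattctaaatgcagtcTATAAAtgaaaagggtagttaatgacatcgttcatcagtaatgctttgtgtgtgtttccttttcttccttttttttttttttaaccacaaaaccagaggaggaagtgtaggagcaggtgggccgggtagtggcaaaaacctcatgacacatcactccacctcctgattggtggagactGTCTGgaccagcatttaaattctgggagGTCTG

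The motifs searched on both strands were the Smad element CAGAC, the AP-1 element TGANTCA, the MCAT element CATTCC bound by TEAD factors, the CArG box by name, and the TATA motif TATAAA. No motif searched overlapped another in these 4 windows. The Tgfb1 window held none of the 5 motifs and was 75.2% G and C. Tgfb2 held the Smad element at 221 to 217 and at 204 to 200 bases before the start, and TATAAA at 31 to 26 bases before it. Tnc and Spp1 each had 2 starts in the table, and the windows shown are those of the first. That of Tnc held TATAAA at 126 to 121 bases before the start and no Smad element, while the window of its other start held the Smad element on the opposite strand at 70 to 66 bases before that start. The Spp1 window shown held TATAAA at 211 to 206 bases before the start, and the Smad element on the opposite strand (read here as GTCTG) at 33 to 29 and at 5 to 1 bases before it. The window of its other start held the Smad element at 41 to 37 bases before that start. Of all 32851 promoter windows of this length, 42.2% held the Smad element, 12.4% held TATAAA, 12.6% held CATTCC, 6.75% held TGANTCA and 1.47% held a CArG box. A match in such a window is only a description of its letters.

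Levels in control muscle differed widely between the genes. Per kilobase of exon, Acta2, the actin of smooth muscle and myofibroblasts, was highest in female controls at 27.5 ± 4.93 CPM per kilobase (SD, n = 4). Tgfb3 followed at 13.3 ± 2.33, then Fn1 at 4.98 ± 0.318, Ctgf at 4.15 ± 0.593 and Tgfb2 at 3.47 ± 0.293 CPM per kilobase. Postn at 2.05 ± 1.36, Spp1 at 1.26 ± 1.13, Lox at 1.23 ± 0.526 and Tgfb1 at 1.06 ± 0.257 CPM per kilobase had ranges that overlapped over the 4 controls. Tnc was lowest at 0.283 ± 0.0473 CPM per kilobase. The resting muscle therefore held Tgfb3 as its main TGF-beta ligand transcript, while Tgfb1 was among the least abundant of the 10 genes.

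**Figure D1:**
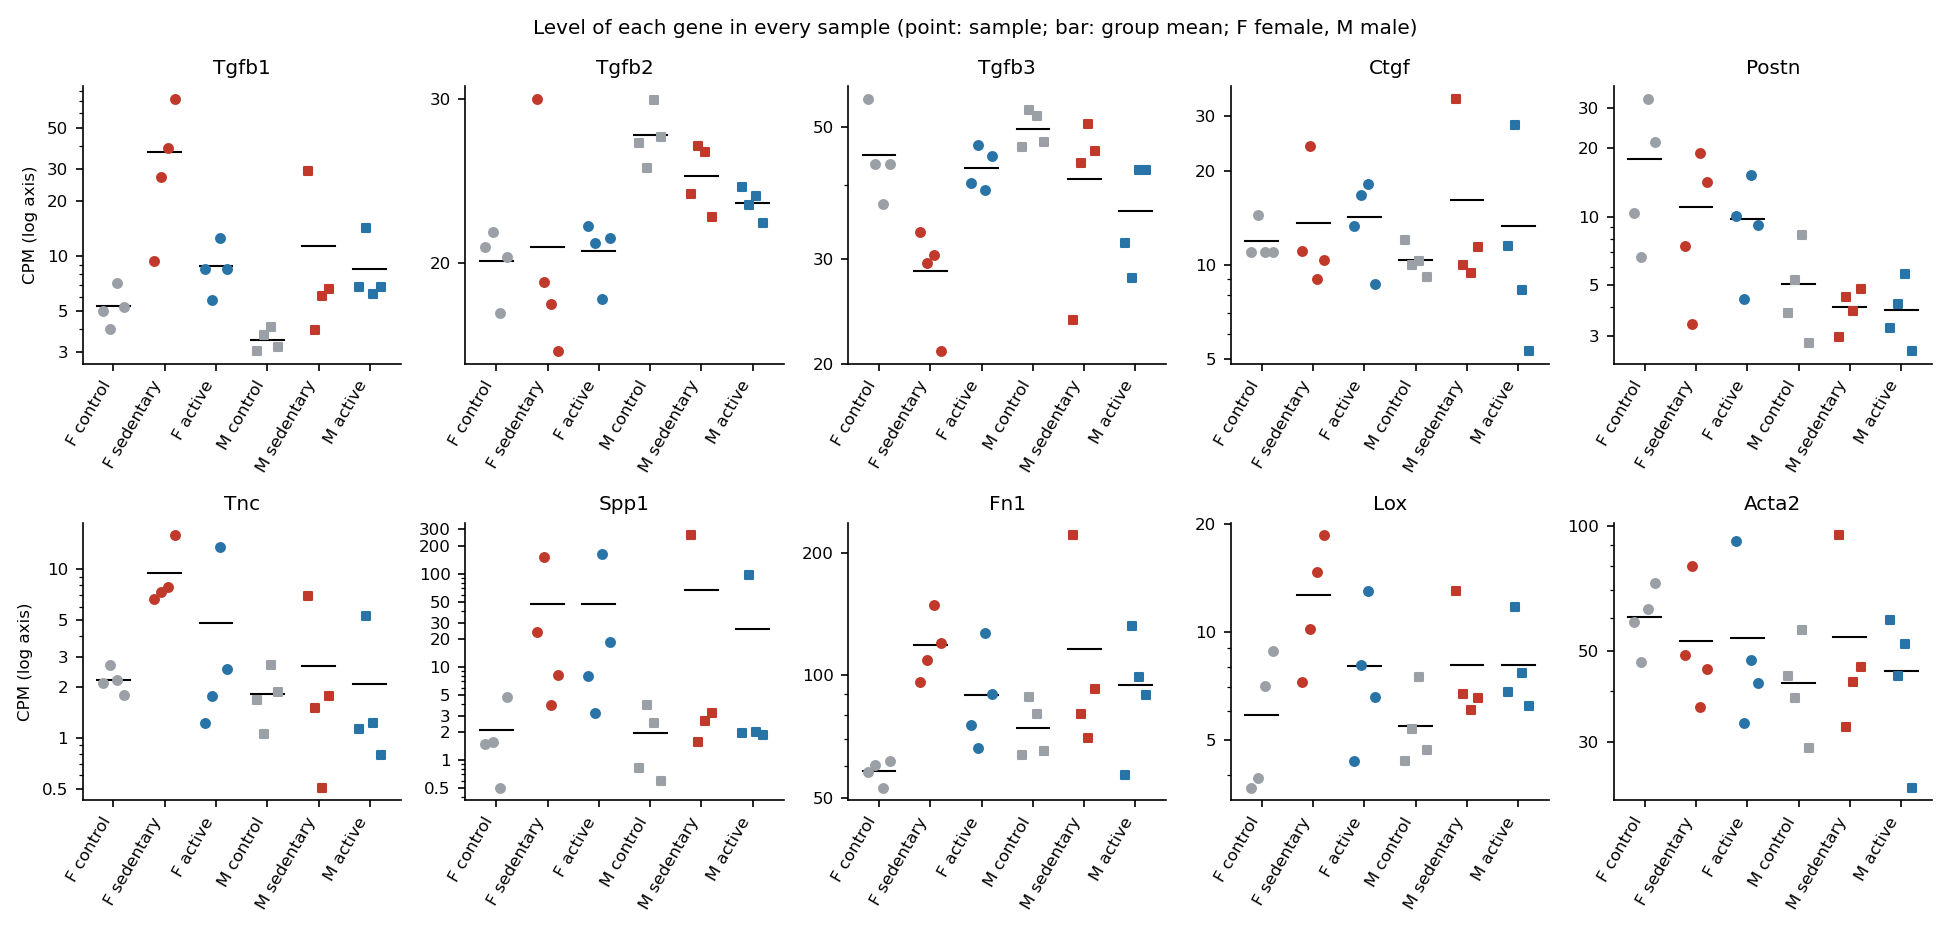
CPM of the 10 genes in each of the 24 samples, on a log axis whose range differs between panels; points are samples in replicate order within a group and bars are group means. Tgfb1, Tnc and Fn1 lie higher in all 4 female sedentary pain samples than in all 4 female controls, Tgfb3 lies lower, and in males the high Spp1 values are 1 sample in each pain group.

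In sedentary females with pain, 4 of the 10 genes rose against female controls (Tgfb1, Fn1, Tnc and Spp1) and Tgfb3 fell, as judged by edgeR's quasi-likelihood test with Benjamini-Hochberg adjustment over all genes tested. Adjusted p-values are called below the threshold of 0.05. The background for that count of 5 is high, because 33.5% of the 14511 genes tested were called in the same comparison, 19.6% higher and 13.9% lower, and 47.6% had an unadjusted p under 0.05. The median log2 change of the 10 genes was 0.59, against -0.02 over all genes tested. Lox, Tgfb2, Ctgf, Postn and Acta2 did not pass.

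The ligands went in different directions. Tgfb1, the ligand made by many leukocytes and the best-known driver of fibrosis, was at 5.03, 4, 7.10 and 5.25 CPM in female control replicates 1 to 4. In female sedentary pain it was at 9.38, 27, 39 and 72.3 CPM. All 4 pain samples were above all 4 controls, and the pain samples themselves were widely spread. The fitted log2 change was 2.77 ± 0.50 (SE, adjusted p = 0.00363), a 6.80-fold rise.

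Tgfb3, the ligand known for development of the palate and lung and abundant in muscle, was at 55.8, 43.3, 37.1 and 43.3 CPM in female controls and at 33.3, 29.5, 30.5 and 21 CPM in female sedentary pain. Every pain sample was below every control. The gene fell by 0.67 ± 0.16 on the log2 scale (adjusted p = 0.0118). Beside the count of genes whose groups did not overlap (Tgfb1, Tnc and Fn1 higher, Tgfb3 lower, 4 of 10), 26.3% of all genes tested had no overlap, 15.3% higher and 11% lower. Tgfb3 overlaps the gene Ttll5 on the opposite strand by 5149 bases; Ttll5 reached at most 188 counts in a sample against at least 506 for Tgfb3, and whether the counting used strand is not given in the sources used here.

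Tgfb2, the ligand known from heart and eye development, was at 20.8, 21.6, 17.7 and 20.3 CPM in female controls and at 30.0, 19.1, 18.1 and 16.1 CPM in female sedentary pain. The pain samples lay on both sides of the controls, with replicate 1 alone above them. Its log2 change was 0.04, with a 95% interval of -0.35 to 0.43 (adjusted p = 0.887).

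The ligands were also set side by side per length. As a share of the summed CPM per kilobase of the 3 ligands, Tgfb1 made up 6.11% ± 2.12 (SD, n = 4) in female controls. In sedentary females with pain it made up 35.5% ± 20.9, where single samples ranged from 11% to 61.5%. The Tgfb3 share was 74.3% ± 2.96 in controls and 45.1% ± 13.4 in sedentary females with pain. In female active pain the shares were 9.87% ± 3.46 for Tgfb1 and 70.3% ± 3.15 for Tgfb3. The summed ligand level was 17.8 ± 2.38 CPM per kilobase in female controls, 19.4 ± 2.95 in sedentary pain and 17.9 ± 0.734 in active pain, with overlapping ranges. In males the Tgfb1 share was 3.44% ± 0.282 in controls, 12.9% ± 14.3 in sedentary pain and 10.5% ± 5.53 in active pain. The summed ligand level of males was 20.1 ± 1.2 CPM per kilobase in controls, 18.6 ± 1.58 in sedentary pain and 16.4 ± 1.58 in active pain. Its range in male active pain (14.9 to 17.8) lay below that in male controls (18.9 to 21.4). Shares were not tested, since they restate the levels above. They depend on exon lengths from the annotation, and fewer Tgfb3 reads and more Tgfb1 reads both raise the Tgfb1 share.

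**Figure D2:**
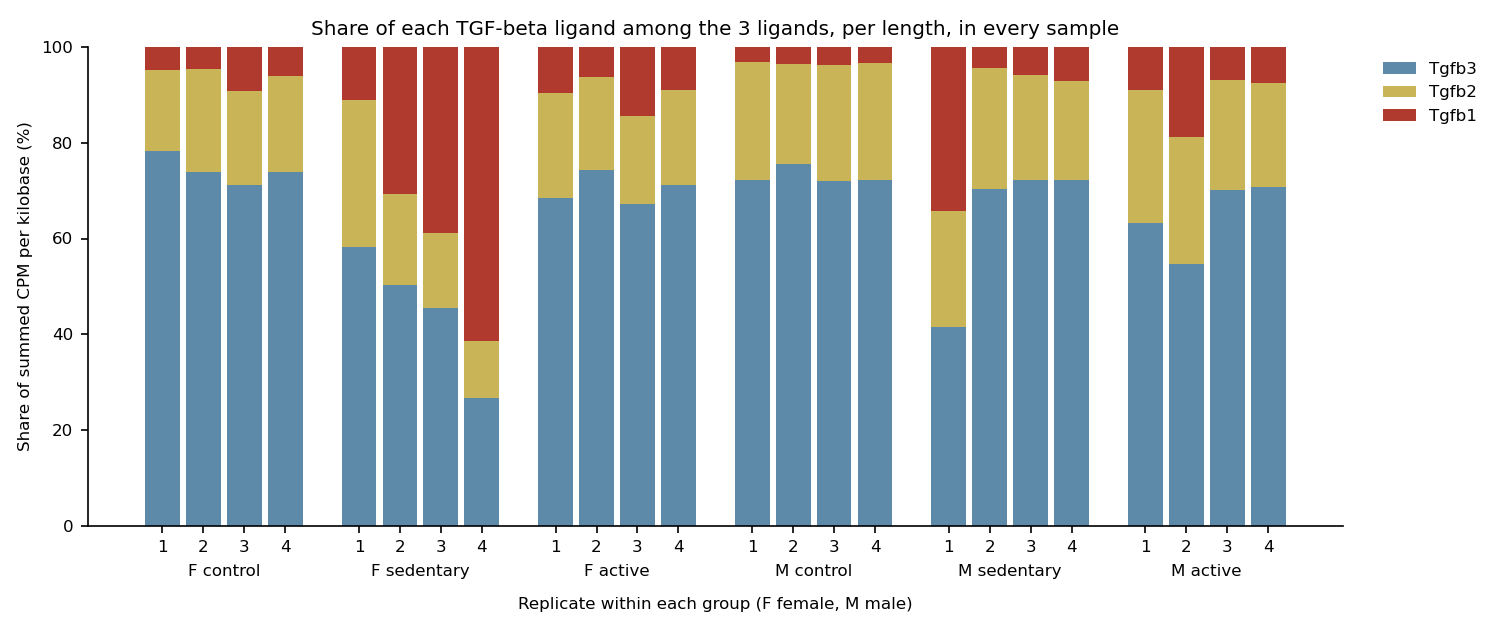
Share (%) of Tgfb1, Tgfb2 and Tgfb3 in the summed CPM per kilobase of the 3 ligands, 1 bar per sample, replicates 1 to 4 in each of the 6 groups. The Tgfb1 share reaches 61.5% in a female sedentary pain sample and 34.3% in male sedentary pain replicate 1, and the highest control share is 9.14%.

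Among the matricellular genes, whose products sit in the matrix and signal to cells without being part of its scaffold, Tnc and Spp1 rose and Ctgf and Postn did not pass the test. Tnc, encoding tenascin-C of injured and regenerating tissue, was at 2.12, 2.69, 2.19 and 1.80 CPM in female controls and at 6.69, 7.35, 7.81 and 15.9 CPM in female sedentary pain. No pain sample overlapped a control. The log2 change was 2.08 ± 0.66 (adjusted p = 0.0327, a 4.24-fold rise). This call was lost in 8 of the 27 alternative analyses that gave an adjusted p, among them leaving out any single female control or female sedentary pain replicate 4, where adjusted p-values ranged from 0.0582 to 0.0944.

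Spp1, encoding osteopontin, a secreted ligand of CD44 and integrins made by macrophages among other cells, varied most between samples. It was at 1.47, 1.56, 0.507 and 4.77 CPM in female controls and at 23.6, 152, 3.95 and 8.11 CPM in female sedentary pain. Of the 4 pain samples, 3 were above every control, and replicate 3 lay inside the control range. The log2 change was 4.44 ± 1.46 (adjusted p = 0.0371). Replicate 2 carried much of it: without that library the log2 change was 2.48 (adjusted p = 0.146), and 11 of 28 alternatives lost the call. Leaving out any single female control also lost it, with adjusted p-values from 0.0529 to 0.09.

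Ctgf, a known target of Smad and of mechanical signalling that is often read as a sign of TGF-beta activity, was at 11, 14.4, 11 and 11 CPM in female controls and at 11.1, 24.0, 9 and 10.4 CPM in female sedentary pain. A single pain sample, replicate 2, was above the controls. The log2 change was 0.17 with a 95% interval of -0.50 to 0.85 (adjusted p = 0.672). The upper end of that interval lies below the lower end of the Tgfb1 interval (1.69 to 3.85).

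Postn, encoding periostin of fibroblasts and tendon, was at 10.4, 6.69, 33.1 and 21.3 CPM in female controls and at 7.45, 3.39, 19.0 and 14.3 CPM in female sedentary pain. Its values overlapped, and the log2 change was -0.71 with an interval of -1.97 to 0.55 (adjusted p = 0.343). In all 3 female groups the mean of replicates 3 and 4 was above that of replicates 1 and 2, and the same split runs through the numbers in the library names (20 or lower, 25 or higher). Within replicates 1 and 2 the log2 change of Postn was -0.65, and within replicates 3 and 4 it was -0.71.

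Fn1, encoding fibronectin, the scaffold on which other matrix proteins assemble, had the highest mean CPM of the called genes. Female controls held 58.1, 60.2, 53.1 and 61.6 CPM and female sedentary pain samples 96.4, 109, 149 and 120 CPM. The groups were far apart and each was tight. The log2 change was 1.01 ± 0.19 (adjusted p = 0.00458, a 2.01-fold rise). Lox, the enzyme that crosslinks collagen and elastin, was at 3.68, 3.91, 7.06 and 8.86 CPM in female controls and at 7.26, 10.2, 14.7 and 18.6 CPM in female sedentary pain, with 3 of 4 pain samples above every control. Its log2 change of 1.09 ± 0.40 missed the threshold (adjusted p = 0.0526) and passed it in 11 of 28 alternatives, such as leaving out female sedentary pain replicate 1 (1.30, adjusted p = 0.0207).

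Acta2 was at 58.5, 46.9, 62.9 and 73.0 CPM in female controls and at 48.7, 80.3, 36.6 and 45.1 CPM in female sedentary pain. The values overlapped, and the log2 change was -0.22 with an interval of -0.89 to 0.46 (adjusted p = 0.597). Within replicates 3 and 4 alone it was called, at -0.74 (adjusted p = 0.0421), where 22.4% of all genes were. Smooth muscle of vessels also expresses Acta2. The summed CPM of 6 smooth muscle markers was 191 ± 7.58 (SD, n = 4) in controls and 151 ± 23.2 in sedentary females with pain, with a median log2 change of -0.74. Of the 6, 2 fell, Lmod1 by 1.38 ± 0.24 and Myh11 by 1.12 ± 0.23 on the log2 scale (adjusted p = 0.00327 and 0.00619), and Tagln was at -0.02 ± 0.33 (adjusted p = 0.967). In sedentary females against controls, 13.9% of all genes tested were called lower. Among the 11151 genes compared for likeness of pattern over the 24 samples, Tinagl1 and the smooth muscle gene Tagln were closest to Acta2. Their root mean square differences of log2 CPM, after centring each gene, were 0.21 and 0.23, against a median of 0.60 over all genes compared.

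**Figure D3:**
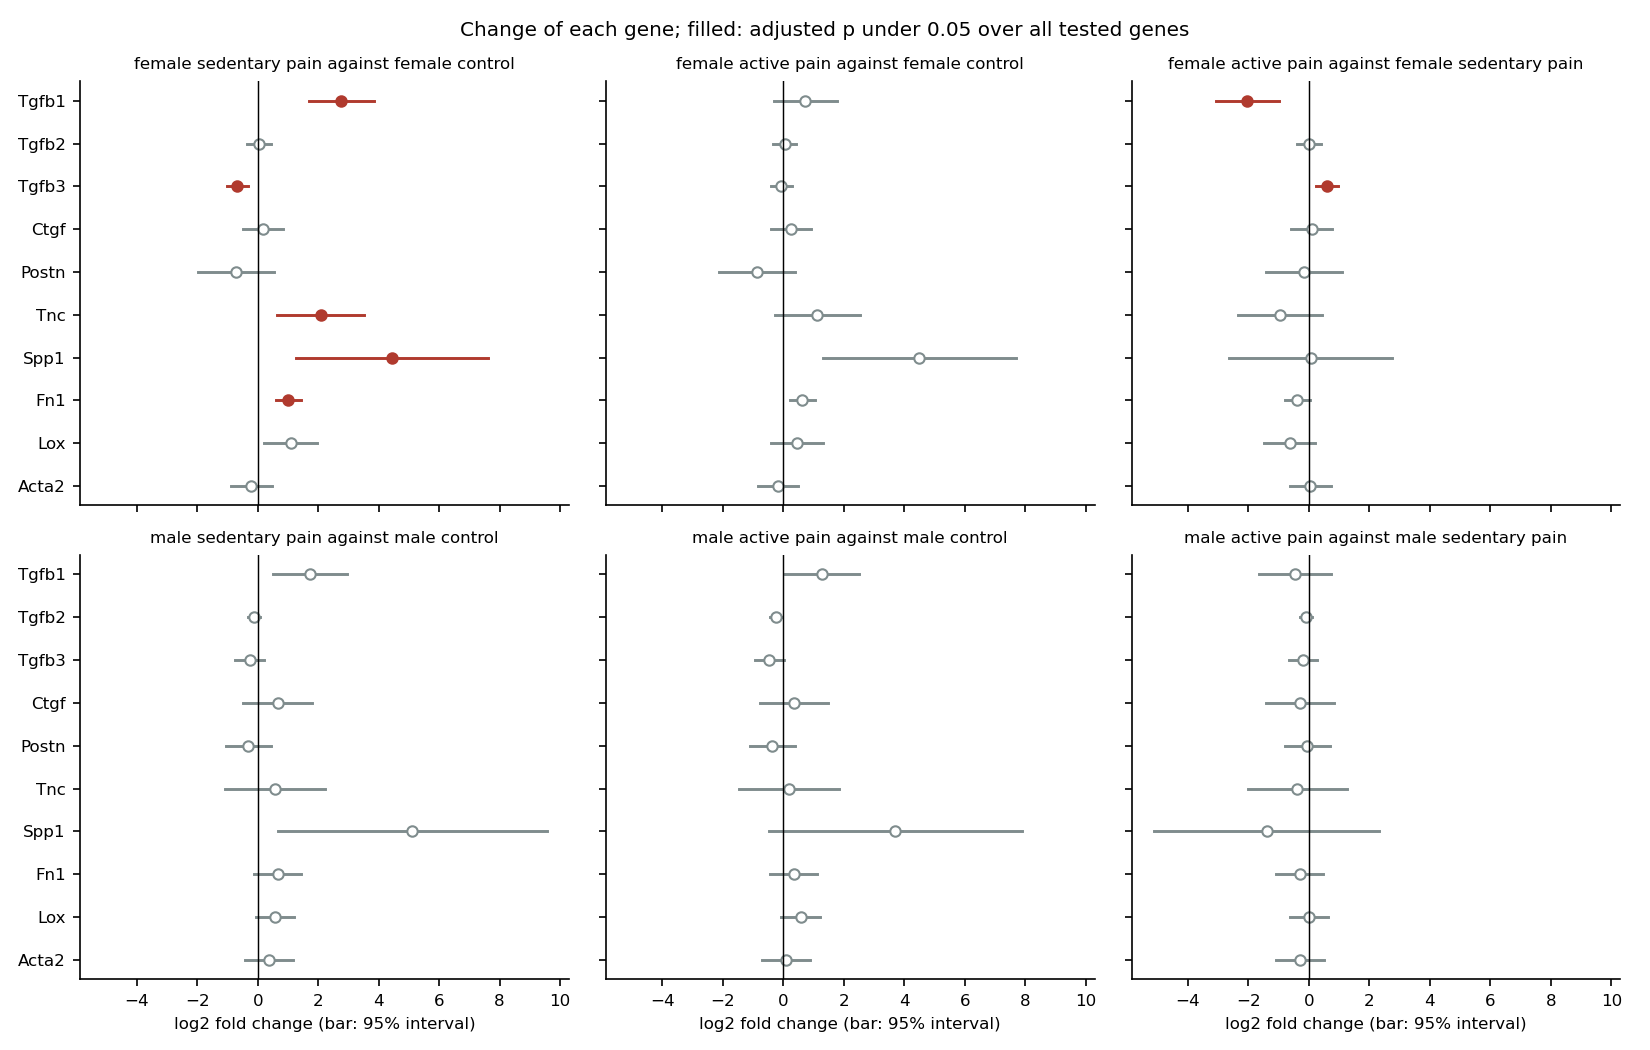
Fitted log2 fold change of each gene in the 6 comparisons within a sex, with 95% intervals; filled points have an adjusted p under 0.05 over all genes tested. In females 5 genes are filled for sedentary pain against control and 2 for active against sedentary pain, and no point is filled in males.

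In females that had run before the pain procedure, no gene of the set was called against the same controls. None of all 14511 genes was called in that comparison (0%) by edgeR; the smallest adjusted p was 0.565, 1020 genes (7.03%) had an unadjusted p under 0.05, and DESeq2 called 125. Among the 10 genes, 2 had an unadjusted p under 0.05, Fn1 and Spp1, and DESeq2 called 1 of them, Spp1 (log2 change 4.53, adjusted p = 0.0499). By edgeR the log2 change of Spp1 was 4.5 ± 1.46 (adjusted p = 0.586), and without female active pain replicate 3 it was 2.22 (adjusted p = 1). Fn1 was at 75.6, 66.5, 127 and 90.2 CPM in female active pain, above every control, and its log2 change was 0.62 ± 0.19 (adjusted p = 0.565). Values without overlap occurred in 5.44% of genes here, 3.6% higher and 1.84% lower. Spp1 was at 8.03, 3.21, 162 and 18.7 CPM, with 3 of 4 samples above every control. Tgfb1 was at 8.52, 5.79, 12.6 and 8.48 CPM, also with 3 of 4 samples above every control, and its log2 change was 0.72 with an interval of -0.31 to 1.76 (adjusted p = 0.837). Tnc was at 1.22, 1.76, 13.6 and 2.55 CPM, where replicate 3 stood alone above the controls and 2 samples lay below them. The other 6 genes had log2 changes from -0.88 for Postn to 0.44 for Lox, and the values of each overlapped the controls. Tgfb3 was nearly level with its controls, at a log2 change of -0.07 with an interval of -0.42 to 0.28.

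Set directly against sedentary pain, active pain in females had lower Tgfb1 and higher Tgfb3. The 3 comparisons among the female groups share samples, both pain groups being set against the same controls. The 2 genes called stand against a background of 11.9% of all genes tested, 2.51% called higher and 9.41% called lower, and 32.2% had an unadjusted p under 0.05. Tgfb1 fell by 2.04 ± 0.48 on the log2 scale (adjusted p = 0.0328), and 3 of the 4 active samples were below every sedentary pain sample. Tgfb3, at 40.3, 46.7, 39.2 and 44.7 CPM in female active pain, rose by 0.60 ± 0.16 on the log2 scale (adjusted p = 0.0381), with all 4 active samples above all 4 sedentary pain samples. Values without overlap occurred in 11.8% of genes, 5.44% higher and 6.37% lower. Both calls depended on how the fit was made: with only these 2 groups in the fit, the adjusted p was 0.0877 for each gene and 0% of all genes were called, and leaving out female active pain replicate 1, 2 or 4, or female sedentary pain replicate 3 or 4, ended both, with adjusted p-values from 0.0636 to 0.115. In those 5 fits at most 0.0204% of all genes were called. The Tgfb3 call was also lost without female active pain replicate 3, female sedentary pain replicate 2 or female control replicate 2 or 4, with adjusted p-values from 0.0514 to 0.0558. Without female sedentary pain replicate 4 the log2 changes were -1.51 for Tgfb1 and 0.45 for Tgfb3.

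Of the genes that rose in sedentary pain, the other 3 did not pass this direct comparison. Fn1 had a log2 change of -0.38 (interval -0.80 to 0.04, adjusted p = 0.186), and 3 of 4 active samples were below every sedentary pain sample. Tnc had a log2 change of -0.96 (interval -2.34 to 0.42, adjusted p = 0.301), likewise with 3 of 4 active samples below. Leaving out female active pain replicate 3 brought both past the threshold, at -0.63 for Fn1 (adjusted p = 0.0406) and -2.36 for Tnc (adjusted p = 0.0272). Spp1 had a log2 change of 0.06 with an interval of -2.65 to 2.76 (adjusted p = 0.977), so the data bound its difference only loosely.

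In males no gene of the set was called in any of the 3 comparisons. By edgeR 0 of 14404 genes (0%) were called for sedentary pain against control, and DESeq2 called 270 genes, none of them among the 10. The smallest adjusted p was 0.296, and 1273 genes (8.84%) had an unadjusted p under 0.05, among them Tgfb1 and Spp1. DESeq2 gave Spp1 no adjusted p in any of the 3 male comparisons, so it gave no verdict on that gene. None of the 10 genes had values without overlap, which occurred in 8.07% of genes, 3.95% higher and 4.12% lower. Tgfb1 was at 3.04, 3.71, 4.10 and 3.18 CPM in male controls and at 29.2, 3.98, 6.04 and 6.59 CPM in male sedentary pain. Replicate 1 was far above the rest, and replicate 2 lay within the control range. The log2 change was 1.72 ± 0.56 with an unadjusted p of 0.0102 and an adjusted p of 0.353.

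The same male library, sedentary pain replicate 1, was the highest of its group for Spp1 (261 CPM, against 1.57, 2.62 and 3.20), Fn1 (221 CPM, against 80.4, 70.1 and 92.6), Ctgf (34.1 CPM, against 9.97, 9.41 and 11.4), Tnc (6.94 CPM, against 1.51, 0.507 and 1.78), Lox (13 CPM, against 6.72, 6.04 and 6.55) and Acta2 (95.2 CPM, against 32.6, 42.0 and 45.5). It was the lowest for Tgfb3, at 23.7 CPM against 43.5, 50.6 and 45.5. It was also the lowest for Postn, at 2.95 CPM against 4.45, 3.84 and 4.80. Spp1 had a log2 change of 5.12 with an interval of 0.68 to 9.56 (adjusted p = 0.488) in male sedentary pain against control. With that library and male active pain replicate 2 left out, a choice made after seeing the data, the log2 changes in male sedentary pain were 0.67 for Tgfb1 (adjusted p = 0.211), 0.35 for Spp1 (adjusted p = 1) and 0.14 for Fn1 (adjusted p = 1).

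Male active pain against control gave 0 of 14404 genes called by edgeR (0%), a smallest adjusted p of 0.465, 1045 genes (7.25%) at an unadjusted p under 0.05 and 127 genes by DESeq2, again none of the 10. Spp1 again had no adjusted p from DESeq2. All 3 ligands were separated from the controls in CPM. Tgfb1 was at 6.76, 14.2, 6.19 and 6.76 CPM, all above the controls, with a log2 change of 1.28 ± 0.56 (adjusted p = 0.634). Tgfb3 was at 31.9, 27.9, 42.3 and 42.4 CPM against 46.3, 53.4, 52.1 and 47.1 CPM in controls, and its log2 change was -0.46 ± 0.22 (adjusted p = 0.634). Tgfb2 was at 24.1, 23.1, 23.6 and 22.1 CPM against 26.9, 25.3, 29.9 and 27.3 CPM in controls, and its log2 change was -0.23 ± 0.09 (adjusted p = 0.634). With both male libraries named above left out, the log2 change of Tgfb1 was 0.92 (adjusted p = 0.0715). Values without overlap occurred in 10.4% of genes in this comparison, 6.34% higher and 4.06% lower, so the 3 of 10 here are read against that share.

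Among the other genes, replicate 2 was the highest of the male active pain group for Spp1 (97.4 CPM, against 1.94, 1.98 and 1.86), Ctgf (28.1 CPM, against 11.5, 8.31 and 5.30), Tnc (5.24 CPM, against 1.12, 1.23 and 0.791), Fn1 (132 CPM, against 57.1, 99.1 and 89.4) and Lox (11.7 CPM, against 6.80, 7.69 and 6.21). Acta2 did not follow, with replicate 1 highest at 59.3 CPM and replicate 2 at 43.5 CPM. Nor did Postn, with replicate 3 highest at 5.61 CPM and replicate 2 at 4.12 CPM. Between male active and male sedentary pain no gene of the 10 was called and all 10 log2 changes were below 0, from -0.01 for Lox to -1.40 for Spp1, with every interval crossing 0. That direction rested on male sedentary pain replicate 1: without it the log2 changes of 7 of the 10 were above 0, among them Spp1 at 3.36, Tnc at 0.69 and Tgfb1 at 0.60, with none called. By edgeR and by DESeq2 0 genes were called (0%), with 121 genes (0.84%) at an unadjusted p under 0.05, none of them among the 10. None of the 10 had values without overlap, beside 0.653% of genes, 0.437% higher and 0.215% lower.

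A test of the sex difference itself used all 24 samples, and no gene of the set was called for any of the 3 changes. For sedentary pain against control, the male minus female difference of log2 changes was -1.08 for Tgfb1 (interval -2.67 to 0.50, adjusted p = 0.685) and -1.55 for Tnc (interval -3.71 to 0.62, adjusted p = 0.67). Without male sedentary pain replicate 1 these were -2.13 for Tgfb1 (adjusted p = 0.0689) and -2.62 for Tnc (adjusted p = 0.12). For active against sedentary pain it was 1.63 for Tgfb1 (interval 0.06 to 3.20, adjusted p = 0.327) and -0.75 for Tgfb3 (interval -1.32 to -0.18, adjusted p = 0.247). In each of these tests edgeR called 0 of 15103 genes (0%), with 1446 (9.57%) and 2224 (14.7%) at an unadjusted p under 0.05 and 15 and 133 by DESeq2. Of the 10 genes, 0 and 2 had an unadjusted p under 0.05. The difference for active pain against control gave 0 genes as well (0%), with 307 (2.03%) at an unadjusted p under 0.05 and 3 by DESeq2. Male sedentary pain replicate 1 weighed on these values: without it, the differences for active against sedentary pain were 2.68 for Tgfb1 and -0.94 for Tgfb3, both with an adjusted p of 0.0228, where 14.1% of all genes were called. The females' calls and the males' lack of calls therefore do not show that the sexes differed.

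Between controls of the 2 sexes, no gene of the 10 was called while 2.83% of the 15103 genes tested were, 1.54% higher and 1.28% lower in males. Postn and Tgfb2 had an unadjusted p under 0.05, as did 14.9% of genes. Postn came nearest, at 3.79, 5.28, 8.31 and 2.80 CPM in male controls against the female values above, with a log2 change of -1.82 ± 0.51 for male against female (adjusted p = 0.0582). It passed in 7 of 24 analyses with 1 library left out, and DESeq2 called it (adjusted p = 0.00701). Postn also stayed at 2.57 to 5.61 CPM in the male pain groups, against 3.39 to 19.0 CPM in the female pain groups. Tgfb2 was higher in every male control than in every female control, with a log2 change of 0.44 ± 0.14 (adjusted p = 0.105). Fn1 was also higher in every male control, at 63.7, 88.4, 80.6 and 65.3 CPM (log2 change 0.35 ± 0.30, adjusted p = 0.575). Values without overlap occurred in 22.3% of genes between the controls, 13% higher and 9.29% lower in males.

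The other genes of the pathway were read from a list of 53 in 7 roles, of which 52 were tested in females and 50 in males. In female sedentary pain against control, 19 passed, 14 higher and 5 lower, and their median log2 change was 0.24 against -0.02 over all genes tested. That is 19 of 52 beside a background of 33.5%. In female active against sedentary pain 8 passed, all lower, beside a background of 9.41% called lower. In the other comparisons within a sex and in the sex differences 0 passed by edgeR, and DESeq2 called 1 in male sedentary pain against control.

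Of 12 storage and activation genes, 3 were higher and 2 lower in sedentary females, beside 19.6% of all genes called higher and 13.9% called lower. The same shares stand beside the counts of the roles that follow. Nrros, the anchor of latent TGF-beta on macrophages and microglia, rose from 3.04 ± 1.34 to 44.5 ± 31.9 CPM (SD, n = 4; log2 change 3.84 ± 0.59, adjusted p = 0.0026). Emilin1, which limits processing of the TGF-beta precursor, rose by a log2 change of 1.57 ± 0.27 (adjusted p = 0.00311). The binding proteins Ltbp3 and Ltbp4 fell by 0.55 ± 0.12 and by 0.71 ± 0.18 on the log2 scale (adjusted p = 0.00616 and 0.0133). Thbs1, an activator of latent TGF-beta, was at 8.11 to 65.8 CPM in sedentary pain against 2.97 to 7.36 CPM in female controls and missed the threshold (adjusted p = 0.0709).

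Of the 5 receptors, the type I receptor Tgfbr1 fell by 0.76 ± 0.25 on the log2 scale (adjusted p = 0.0354), from 29.9 ± 5.61 to 17.8 ± 6.10 CPM (SD, n = 4). Acvrl1, a type I receptor of endothelial cells, rose by 0.83 ± 0.27 (adjusted p = 0.0355). The type II receptor Tgfbr2 was at 31.8 ± 3 and 35.7 ± 14.1 CPM, with a log2 change of 0.15 ± 0.24 (adjusted p = 0.641). Among the Smad signal carriers, Smad4 fell by 0.53 ± 0.18 (adjusted p = 0.0392) and Smad2 and Smad3 did not pass. The calls of Tgfbr1 and Smad4 were lost in 9 and 12 of 28 alternatives, with adjusted p-values up to 0.265 and 0.251. Leaving out female sedentary pain replicate 2 or 4, or female control replicate 1, 2 or 4, ended both, and leaving out female active pain replicate 4 also ended that of Smad4. Of 12 inhibitors, Tgif1, a repressor bound by Smads, rose by 2.29 ± 0.35 (adjusted p = 0.0026), and the other 11 did not pass. These include the feedback inhibitor Smad7, at 4.86 ± 1.13 and 3.82 ± 1.06 CPM (adjusted p = 0.221).

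Of 4 target genes in the list, 2 rose, beside 19.6% of all genes called higher. Tgfbi, a matrix protein first found as induced by TGF-beta, rose from 16.9 ± 2.74 to 102 ± 57.7 CPM (log2 change 2.58 ± 0.43, adjusted p = 0.00303). Cthrc1, known from activated fibroblasts, rose at low levels from 0.155 ± 0.0872 to 0.891 ± 0.469 CPM (adjusted p = 0.0468). The Cthrc1 call held in 12 of 25 alternatives and was lost on leaving out any single female control, female sedentary pain replicate 2, 3 or 4, or female active pain replicate 4, with adjusted p-values up to 0.127. Ccn1 and Id1 did not pass. The members' relatives Loxl1, Loxl2 and Loxl3 rose, with Loxl3 at a log2 change of 1.69 ± 0.31 (adjusted p = 0.00402).

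Receptors of the matrix genes gave 5 calls of 7, beside 33.5% of all genes called. Cd44, a receptor of osteopontin and hyaluronan, rose from 4.65 ± 0.625 to 65.5 ± 34.5 CPM (log2 change 3.79 ± 0.60, adjusted p = 0.00263). The fibronectin receptor subunit Itga5 rose by 2.00 ± 0.34 (adjusted p = 0.00314), and Itgb1 and Itgb3 rose as well. Itga8, a receptor subunit for tenascin-C and osteopontin found on smooth muscle and fibroblasts, fell by 1.61 ± 0.50 (adjusted p = 0.0298) at a low level, from 1.33 ± 0.379 to 0.432 ± 0.258 CPM. That call was lost in 8 of 27 alternatives (adjusted p up to 0.245), among them leaving out female sedentary pain replicate 2 or 4 or female control replicate 2 or 4.

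In active against sedentary females, Nrros fell by 2.47 ± 0.55, Cd44 by 2.04 ± 0.55, Tgif1 by 2.01 ± 0.34, Tgfbi by 1.64 ± 0.42 and Itga5 by 1.49 ± 0.34 on the log2 scale, with adjusted p-values from 0.0328 to 0.0381. Emilin1, Loxl1 and Itgb1 fell by 1.06 ± 0.26, 0.84 ± 0.22 and 0.41 ± 0.12 (adjusted p = 0.033, 0.0355 and 0.0457). With only those 2 groups in the fit none of the 8 was called, as was none of the 14162 genes tested in it (0%). In male sedentary pain against control the smallest p-values of the list were those of Nrros (log2 change 2.1 ± 0.64, adjusted p = 0.323), Emilin1 (0.65 ± 0.21, adjusted p = 0.353) and Cd44 (2.57 ± 0.93, adjusted p = 0.435). In male active pain against control the smallest p-values were those of Emilin1 (0.68 ± 0.21), Smad7 (-0.41 ± 0.16) and Tnxb (0.35 ± 0.15), with adjusted p-values from 0.478 to 0.634. Between the male pain groups they were those of Loxl2, Ltbp1 and Tnxb, with log2 changes of 0.27, 0.28 and 0.29 (adjusted p = 1). In female active pain against control they were those of Cd44 (1.75 ± 0.56), Loxl4 (1.30 ± 0.45) and Loxl3 (0.80 ± 0.31), with adjusted p-values from 0.565 to 0.628. Leaving out 1 library brought these log2 changes as low as 0.89, 1.07 and 0.54.

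**Figure D4:**
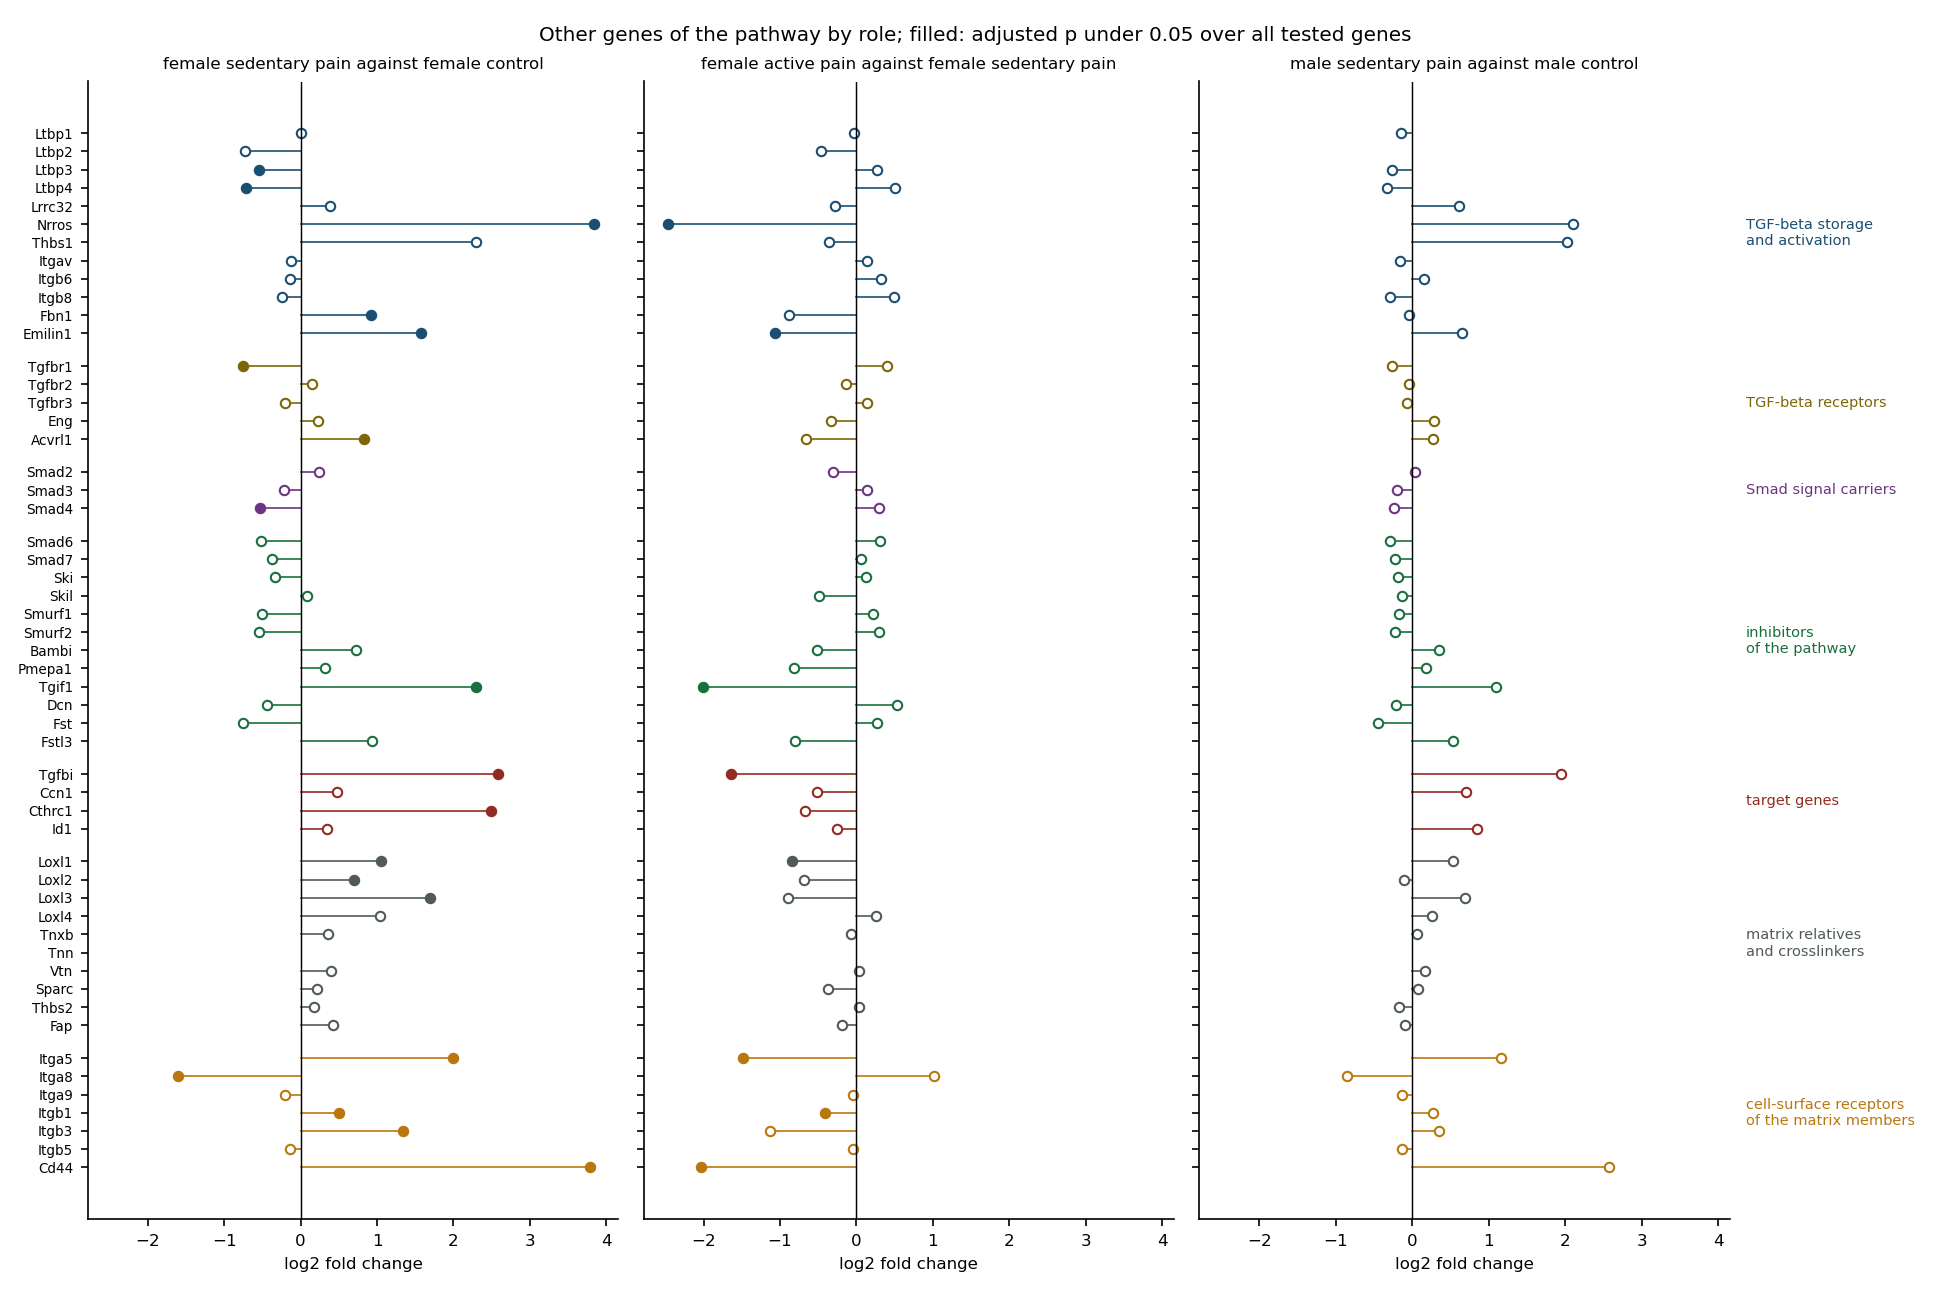
Log2 fold changes of the listed pathway genes other than the 10, grouped by role, in 3 comparisons on a common axis; filled points have an adjusted p under 0.05 over all genes tested, and genes that were not tested have no point (Tnn in each panel, and Ltbp2 and Cthrc1 in males). In female sedentary pain 19 points are filled, led by Nrros at 3.84 and Cd44 at 3.79, in female active against sedentary pain 8 are filled, all below 0, and in males none.

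Markers of macrophages, neutrophils and several other cell types also changed in female sedentary pain. The summed CPM of 10 macrophage and monocyte markers ranged from 89.1 to 199 in female controls, from 475 to 5570.7 in female sedentary pain and from 224 to 492 in female active pain. All 10 markers rose in female sedentary pain against control (median log2 change 4.52), 8 of 10 fell in active against sedentary pain, and none was called in males. The shares of all genes beside the marker counts given here are 19.6% higher and 13.9% lower in female sedentary pain against control, and 9.41% lower in active against sedentary pain. In males the sums were 62.5 to 130 in controls, 129 to 845 in sedentary pain and 200 to 496 in active pain, with the highest values in sedentary pain replicate 1 and active pain replicate 2. All 5 neutrophil markers also rose in female sedentary pain, as did the 2 tested of 6 T and NK cell markers. Of 5 pericyte markers 3 fell, and their summed CPM was 443 to 568 in female controls, 201 to 388 in sedentary pain and 348 to 492 in active pain. The pericyte sum was also lowest of its group in male sedentary pain replicate 1, at 238 CPM, the library with the lowest Tgfb3 of its group. Of 5 endothelial markers 2 fell, with summed CPM of 177 ± 16 (SD, n = 4) in female controls and 143 ± 8.15 in sedentary pain. Of 4 adipocyte markers 3 fell, and their sums in female control replicates 1 to 4 were 61.6, 36.4, 822 and 423 CPM, in the same order as Postn in those samples. In sedentary pain the adipocyte sums were 15.8 to 108 CPM. Fibro-adipogenic and fibroblast markers had 1 of 8 higher and 1 lower. Ly6a rose from 45 ± 9.36 to 313 ± 218 CPM (SD, n = 4; adjusted p = 0.00315) and Gsn fell from 1501.6 ± 590 to 864 ± 125 CPM (adjusted p = 0.0348). Pdgfra, which did not pass, was at 26.9 ± 5.14 CPM in controls and 27.1 ± 4.71 in sedentary pain. No marker in these lists was at 3 or fewer counts in every sample. The part of cell composition in the changes of the 10 genes was not tested.

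Sample by sample, Tgfb1 and Spp1 stood differently beside the macrophage markers. The 2 female sedentary pain samples with the highest marker sums, replicates 3 and 4 (4037.2 and 5570.7 CPM), also had the highest Tgfb1 of all 24 samples (39 and 72.3 CPM). The same samples had Spp1 at 3.95 and 8.11 CPM. Their summed CPM of 7 muscle fibre markers was 93766.9 and 86151.7, below the 124591.7 to 188305.8 of female controls. Replicates 1 and 2 of that group were within the control range, at 141171.6 and 171264.7 CPM, and 0 of the 7 markers were called. Spp1 above 90 CPM occurred in 4 samples, 1 in each pain group, whose macrophage and monocyte sums were 811, 492, 845 and 496 CPM. In each of these 4 samples the summed CPM of the 5 neutrophil markers was the highest of its group, at 251, 111, 298 and 77.8 CPM. The summed CPM of 7 tendon markers was likewise the highest of its group in each of them, at 163, 227, 149 and 180 CPM. Tendon sums were 60.5 to 148 CPM in female controls and 67.5 to 142 in male controls, and 1 of the 7 markers rose in female sedentary pain against control. Over the 24 samples, Clic1 and Ifitm2 had the patterns most like Tgfb1, with root mean square differences of 0.17 and 0.18 log2 units against a median of 1.20 over the genes compared. Asph (0.12) and Gpr146 (0.13) were nearest to Tgfb2, and Ube3b (0.13) and Mlec (0.14) to Tgfb3, beside medians of 0.40 and 0.46. Gpnmb and Ahnak2 were nearest to Tnc at 0.62 each, and Slc25a24 and Emp1 to Fn1 at 0.26 each, beside medians of 1.27 and 0.60. Ifrd1 (0.31) and F8a (0.34) were nearest to Ctgf, Acsf2 (0.58) and Csad (0.59) to Postn, and Snx1 (0.26) and Anxa1 (0.27) to Lox, beside medians of 0.68, 1.05 and 0.68. Nearest to Spp1, which varied most, were Adam8 at 1.21 and Rrad at 1.28 beside a median of 2.52.

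**Figure D5:**
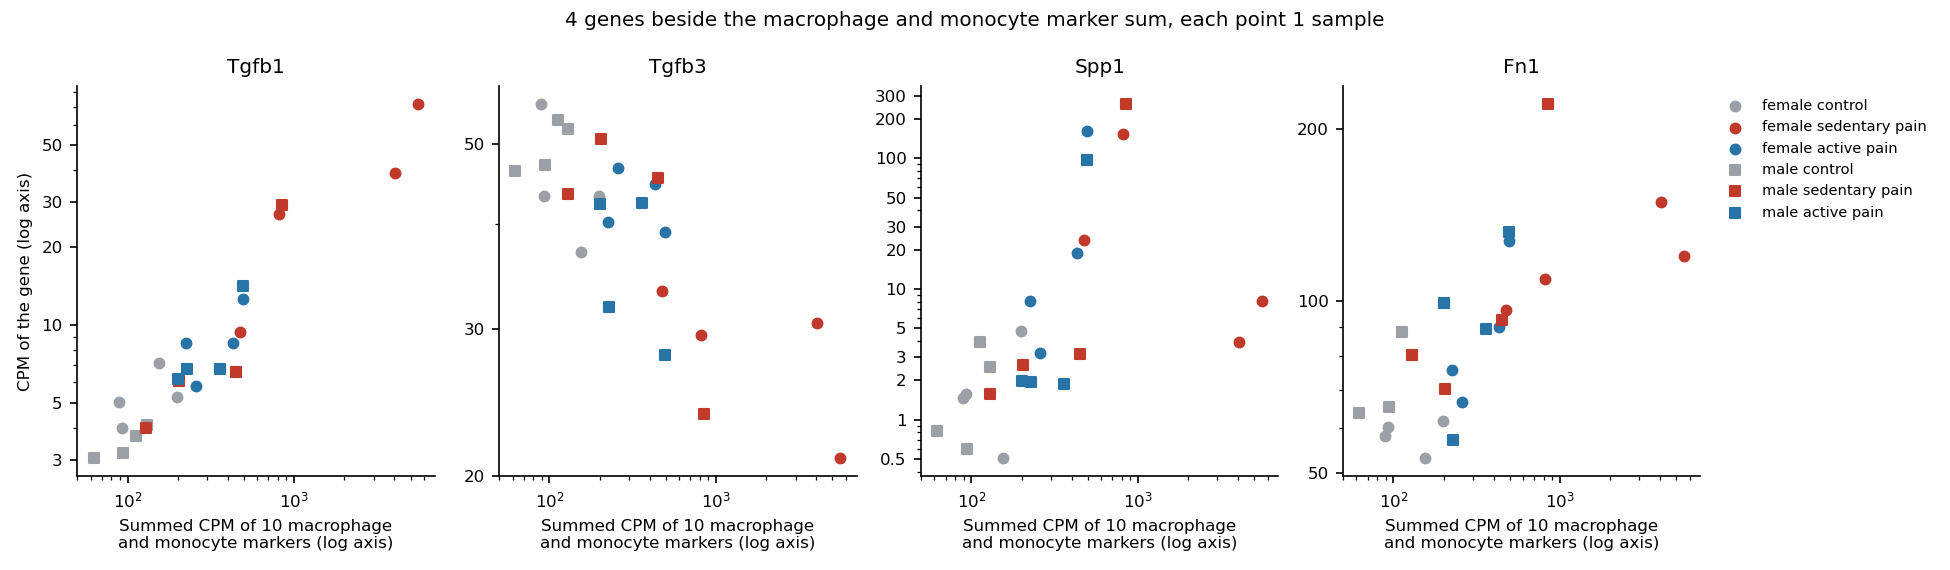
CPM of Tgfb1, Tgfb3, Spp1 and Fn1 (vertical) beside the summed CPM of 10 macrophage and monocyte markers (horizontal), both on log axes, 1 point per sample, with groups by colour and sex by shape. The rightmost points, female sedentary pain replicates 3 and 4, have the highest Tgfb1 at 39 and 72.3 CPM and Spp1 of only 3.95 and 8.11 CPM.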

How the data were processed

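Libraries were TruSeq stranded and paired-end, from total RNA, per the labels' protocols. The submitters' processing notes name HISAT2 2.1.0, Salmon 0.9.1, featureCounts, DESeq2 1.24.0 and the builds mm10 and GRCm38.p6, with no role for each. The deposited values are raw read counts per Ensembl gene, whole numbers for 54532 genes in each of 24 samples, per the file contents; the authors' strand setting is not given in the sources used here. Depth was 17612139 to 34039699 counts per sample. Symbols, positions and exon lengths came from GENCODE M21 (GRCm38) by gene identifier.

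Groups were taken from the labels. Library sizes were scaled with edgeR's TMM factors, and genes were filtered with filterByExpr (minimum count 10) and tested with edgeR 4.0.16 robust quasi-likelihood F tests (two-sided, R 4.3.3), each sex on its own 12 samples, and sex differences and male against female controls on all 24. P-values were adjusted by Benjamini-Hochberg over all genes tested, at 0.05. CPM values use TMM factors of all 24 samples. Log2 CPM for pattern likeness had a prior count of 2 and covered genes with a mean of at least 1. On simulated counts the test recovered 35.1% of 97 genes changed 2-fold and 77.0% of 100 changed 4-fold in female sedentary pain against control (14423 genes), with 0 false calls; in males it recovered 38.8% of 98 and 77.6% of 98 (14233 genes), with 4 false calls.

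The 10 genes, the pathway list, the marker lists and the tests were chosen with earlier results of these data known, so their selection is not independent of the data. All 10 genes were tested in every comparison. All are named for female sedentary pain against control, and some are not named in the other comparisons. Pathway genes are named by size of change, up to 8 per direction, among those past the threshold, the 3 with the smallest p where none passed, and further ones outside that rule (Loxl1, Loxl2, Itgb1, Itgb3, Acvrl1, Thbs1, Tgfbr2, Smad2, Smad3, Smad7, Ccn1 and Id1 in female sedentary pain against control) were named after their values were seen. A gene of the pathway list as first written was left out of the list and its counts, for a reason unrelated to its values, and is not reported here. Alternatives were RLE scaling, DESeq2 1.42.0, no robust step, other low-count filters, other sets of samples, a replicate block, a library-number term, GC content and length correction (splines with 5 degrees of freedom), no mitochondrial genes, thinning to the smallest total and leaving out each sample in turn. Restricting to replicates 1 and 2 or 3 and 4, and leaving out both male libraries with the highest macrophage marker sums, were added after seeing the data. Python 3.11.15 with pandas 2.3.3 and NumPy 2.4.6 made the tables, and matplotlib 3.10.9 the figures.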

Additional observations from a re-analysis of the deposited data

Results flagged for a closer look

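Of the 60 sets of 4 values (10 genes in 6 groups), 14 held a sample set apart by Dixon's criterion for 4 samples. Its gap to the nearest of the other 3, divided by the range of the set, exceeded the critical value. Chance gives about 1 in 20, or 3 of 60, for independent, normally distributed values. These sets share libraries, so 3 of 60 is only a rough guide. Of the 14, 5 were in male sedentary pain replicate 1: Tgfb1 at 29.2, Ctgf at 34.1, Spp1 at 261, Fn1 at 221 and Lox at 13 CPM. Another 3 were in male active pain replicate 2, with Tgfb1 at 14.2, Tnc at 5.24 and Spp1 at 97.4 CPM, and 2 were in female active pain replicate 3, with Tnc at 13.6 and Spp1 at 162 CPM. The remaining values were Ctgf at 24.0 and Spp1 at 152 CPM in female sedentary pain replicate 2, Tnc at 15.9 CPM in female sedentary pain replicate 4, and Ctgf at 14.4 CPM in female control replicate 2. All 14 were the highest of their group. The macrophage and monocyte marker sum was also the highest of its group in male sedentary pain replicate 1 (845 CPM), male active pain replicate 2 (496 CPM) and female active pain replicate 3 (492 CPM). In female sedentary pain replicate 2 it was 811 CPM, below 4037.2 and 5570.7 CPM in replicates 3 and 4. The neutrophil marker sum was the highest of its group in all 4 of these libraries, at 298, 77.8, 111 and 251 CPM in the order named, and so was the tendon marker sum, at 149, 180, 227 and 163 CPM. The satellite cell and myoblast sum was the highest of its group in 3 of the 4, at 113, 80.1 and 104 CPM, the exception being female active pain replicate 3. The part of these cell types in the values was not tested.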

How the results depend on the processing

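For female sedentary pain against control, Tgfb1 and Fn1 were called in 27 of 28 alternatives (log2 changes 2.00 to 3.17 and 0.79 to 1.26), Tgfb3 in 26 of 28 (-0.86 to -0.52), Tnc in 19 of the 27 with an adjusted p and Spp1 in 17 of 28 (1.15 to 5.84). In replicates 1 and 2 only, 0 of the 10 genes and 1 pathway gene were called, with 1.67% of all genes past the threshold there. The count of 5 genes became 3 without the low-count filter, 3 in replicates 3 and 4 only (Tgfb1, Fn1 and Acta2, the last not among the 5), and 3 to 6 with each sample left out, lowest without female control replicate 1, 2 or 3. Of all genes, 16.2%, 22.4% and 16.9% to 44.9% were called there. For active against sedentary females the count of 2 became 0 without the filter, 0 with only the groups compared, 0 within replicates 1 and 2 alone, 1 when only replicates 3 and 4 were used, and 0 to 3 with each sample left out. Of all genes, 0.667%, 0%, 0% and 15% were called at the first 4 of these settings, and 0% without female active pain replicate 1, 2 or 4 or female sedentary pain replicate 4. The pathway count of 19 became 11 to 24 with each sample left out, lowest without female sedentary pain replicate 4 or female control replicate 4, and the count of 8 became 14 by DESeq2, 1 without the filter, 0 with only the groups compared, 0 in replicates 1 and 2, and 0 to 17 with each sample left out. The 11 to 24 come from the fits in which 16.9% to 44.9% of all genes were called. The 1, 0 and 0 come from those with 0.667%, 0% and 0%. DESeq2 called 3010 of all genes where it gave 14, against 1730 by edgeR. DESeq2 called 1 gene of the set in female active pain against control and 1 pathway gene in male sedentary pain against control. For the sex difference of sedentary pain against control, 1 gene (Tgfb1) was called in replicates 3 and 4 only and 1 with both male libraries of highest marker sum left out. For active against sedentary pain the count was 1 in replicates 3 and 4 only and 0 to 2 with each sample left out, highest without male sedentary pain replicate 1. The shares of all genes called at these settings are not given beside these counts, which are therefore not read as results about the set. For male against female controls the count of 0 became 1 by DESeq2, with the library number term, with GC content and length correction, and without both male libraries, 2 with only the groups compared and 2 in replicates 3 and 4, and 0 to 1 with each sample left out. DESeq2 called 720 of all genes in that comparison, against 427 by edgeR. The shares at the other settings are likewise not given here. The cause of these shifts was not tested.

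Same-numbered samples deviated together weakly (mean residual correlation 0.103 in females, from -0.305 to 0.394, and 0.00676 in males, from -0.652 to 0.574), so the numbers were not taken as pairs. With the replicate block, the pathway count of 19 became 12, the count for male against female controls was 1 both with and without GC content and length correction, Spp1 lost its call in female sedentary pain (adjusted p = 0.106) and Lox and Postn gained one (adjusted p = 0.0142 and 0.0378). The shares of all genes called with the block are not given here. With the block and GC content and length correction together, Postn was at -0.21 (adjusted p = 0.571). No called value changed sign under any alternative. Of the 100 changes of the 10 genes, 52 had another sign under at least 1 alternative, none past the threshold in either fit. Signs were compared after rounding, so this count includes some changes at 0.00. Low counts limit Tnc, Spp1 and Postn most, with lowest counts in a sample of 12, 13 and 58.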
